A study of Arabidopsis thaliana with 6 samples.

Results

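Aquaporins are membrane channels that let water, and in some members small uncharged solutes, pass through cell membranes. The 35 aquaporin genes of Arabidopsis thaliana were followed here. They comprise 13 plasma membrane intrinsic proteins (5 PIP1 and 8 PIP2 genes), 10 tonoplast intrinsic proteins (TIPs) of the vacuole membrane, 9 NOD26-like intrinsic proteins (NIPs) and 3 small basic intrinsic proteins (SIPs). They were chosen by locus identifier, and each had a line in the authors' deposited gene table, 36 of its 33233 lines in all, because TIP2-2 is listed on 2 lines. In the isoform table, 70 of 62921 lines carry these identifiers. Members are named in the hyphenated form of protein databases, so that PIP2-1 is the gene that many plant papers write with a semicolon.

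The study sequenced RNA from 2 adjoining sections of the root apex of wild-type Columbia (Col-0) seedlings, aged 8 days and grown under constant light. Zone II was a 1.5 mm section with elongating cells and root hairs, and zone I was the apical 0.5 mm with the root cap and the dividing cells. Each zone had 3 libraries, and the labels do not say whether these came from separate batches of seedlings, so that p-values may measure technical spread alone. The deposited tables compare a condition named experiment with a condition named control, and no label ties either name to a zone, so folds are given by condition name. Cell type markers, given near the end of the Results, bear on which zone each name stands for. Levels per condition are not used here, so a large fold cannot be set against the level of the control condition. The results are log2 folds of experiment over control with the q-values of the authors' Cuffdiff run. They carry no SD, and the depth of each library is unknown.

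An expanding plant cell takes up water across its plasma membrane and stores most of it in the vacuole, so that PIPs and TIPs lie in series on the path of the water. PIP1 proteins in general depend on PIP2 partners to reach the plasma membrane, while PIP2 proteins form efficient water channels on their own. NIPs carry solutes such as boric acid, arsenite, glycerol or lactic acid more than water, and SIPs reside in the endoplasmic reticulum.

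Sequence likeness within the family limits what a read can tell, and it is closest for PIP2-2 (AT2G37170) and PIP2-3 (AT2G37180). These genes are neighbours on opposite strands of chromosome 2, with 2612 bases between them, and their coding sequences are 94.8% identical, with 45 differing positions in 858. The first 300 bases of both coding sequences, from RefSeq TAIR10.1, are shown 5′ to 3′ because they show where a read can be assigned to 1 gene, with the 14 differing bases in capitals.
PIP2-2: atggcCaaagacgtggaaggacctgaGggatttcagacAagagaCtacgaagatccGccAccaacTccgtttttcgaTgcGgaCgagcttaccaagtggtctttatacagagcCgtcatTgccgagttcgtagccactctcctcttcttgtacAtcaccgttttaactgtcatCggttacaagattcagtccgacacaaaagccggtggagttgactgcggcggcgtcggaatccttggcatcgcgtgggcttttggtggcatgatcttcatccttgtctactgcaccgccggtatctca
PIP2-3: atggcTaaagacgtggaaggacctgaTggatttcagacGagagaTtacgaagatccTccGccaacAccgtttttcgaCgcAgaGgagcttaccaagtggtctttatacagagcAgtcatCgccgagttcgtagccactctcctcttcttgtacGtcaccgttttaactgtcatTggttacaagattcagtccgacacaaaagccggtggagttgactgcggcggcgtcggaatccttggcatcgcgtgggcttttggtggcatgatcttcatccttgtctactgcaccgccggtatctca

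The capitals stop well before the end of these stretches, and the longest run shared by both coding sequences is 242 bases. Of the 709 windows of 150 bases, the length of a read here, 93 (13.1%) are identical in both genes. No other member shares a window of that length with another member. The next closest pairs are NIP4-1 and NIP4-2 with 88.0% identity, PIP1-1 and PIP1-2 with 87.6%, and PIP2-1 and PIP2-2 with 85.5%.

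Most plasma membrane and vacuole aquaporins that could be tested were much higher in the experiment condition. In the authors' deposited table, 18 of the 35 genes were higher with a q-value under 0.01, the threshold for a call. That is 18 of the 26 genes that were tested. A single gene, PIP2-8, was called lower, 7 were tested and not called, and 9 had no test. Over all 18050 tested loci of the authors' deposited table, 22.3% were called higher and 21.2% lower, 43.6% in either direction. At q under 0.05 the aquaporin counts were 18 higher and 2 lower, against 27.8% of tested loci higher and 28.0% lower in the authors' deposited table. The median log2 fold was 4.39 over the 27 tested aquaporin lines and -0.08 over the 17323 tested loci with a finite fold in the authors' deposited table. With the 2 TIP2-2 lines averaged, the median over the 26 tested genes was 3.93. Of the 27 lines 25 lay above 0, as did 8371 of the 17323 loci. The tested members had passed Cuffdiff's own minimum for a test, so this median does not describe the whole family. In bulk tissue, more cells of a type and more RNA per cell cannot be told apart.

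**Figure D1:**
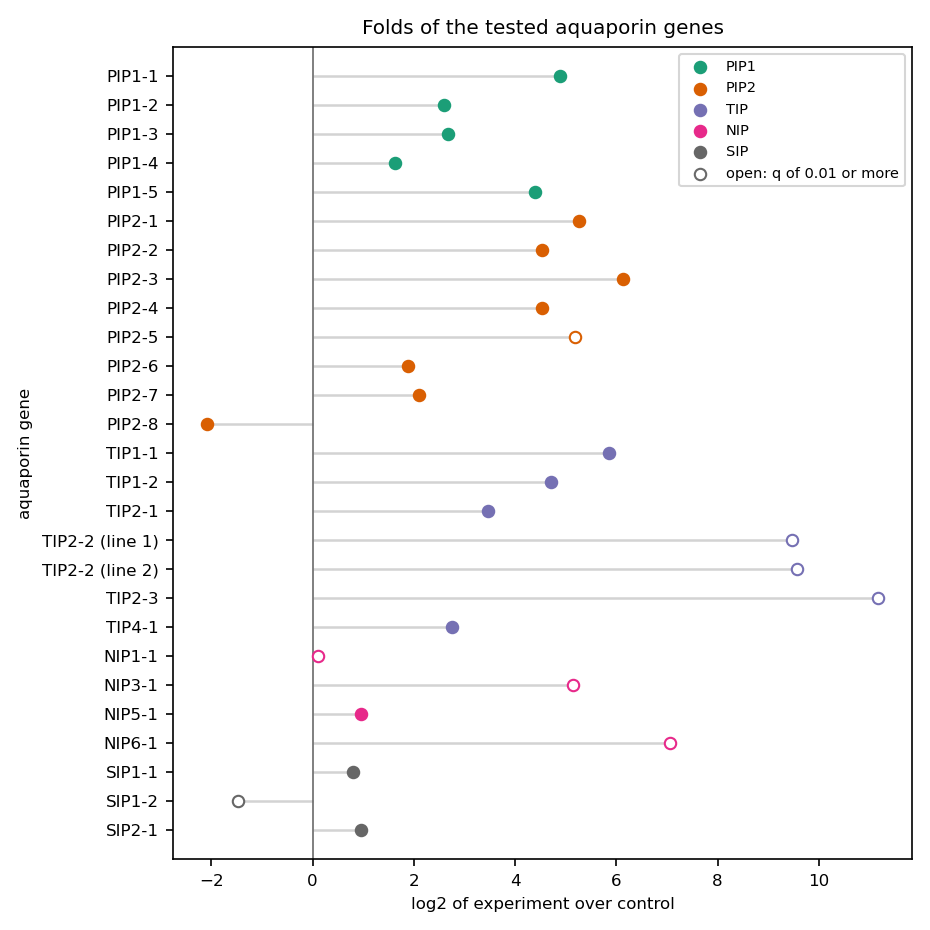
Log2 of experiment over control for each of the 27 tested aquaporin lines, coloured by subfamily, with open points where q was 0.01 or more. Several PIP1, PIP2 and TIP genes reach far to the right, as do the open points of NIP6-1 and NIP3-1. NIP5-1, SIP1-1 and SIP2-1 stay below 1, and PIP2-8 is the filled point left of 0.

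The PIP1 genes were called higher in 5 of 5 cases. PIP1-1 (AT3G61430) had the largest log2 fold of the group, 4.89 in the authors' deposited table, which is 29.7-fold. Its close relative PIP1-2 (AT2G45960) had a log2 fold of 2.59 in the authors' deposited table, or 6.03-fold. PIP1-5 (AT4G23400) was 20.9-fold higher in the experiment condition, a log2 fold of 4.39 in the authors' deposited table. PIP1-3 (AT1G01620) was at 2.67 and PIP1-4 (AT4G00430) at 1.62 in log2 fold in the authors' deposited table. The q-value of each of these 5 genes was 0.000177, the lowest that occurs in the authors' deposited table and one shared by 5093 loci, so q does not rank them. Within the group the folds thus ran from 3.08-fold for PIP1-4 to 29.7-fold for PIP1-1, and whether any of them differ was not tested.

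Of the 8 PIP2 genes, 6 were called higher and 1 lower in the authors' deposited table, each with q = 0.000177. PIP2-3 had the largest fold of all called aquaporins, 70.0-fold or a log2 of 6.13 in the authors' deposited table. Its neighbour PIP2-2, a contributor to water uptake by roots, was 23.2-fold higher, a log2 of 4.54 in the authors' deposited table. Because 13.1% of read-length windows of the coding sequence fit both genes, single reads there cannot be assigned within this pair. The second read of a pair and untranslated bases were not considered, and the effect on the 2 folds was not tested. PIP2-1 (AT3G53420), which carries water and hydrogen peroxide and takes part in lateral root emergence, was 38.3-fold higher, a log2 of 5.26 in the authors' deposited table. PIP2-4 (AT5G60660), expressed mostly in roots, had a log2 fold of 4.52 in the authors' deposited table.

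The other PIP2 genes had smaller folds or none that passed. PIP2-7 (AT4G35100) was 4.28-fold higher, a log2 of 2.10, and PIP2-6 (AT2G39010) 3.69-fold higher, a log2 of 1.88, in the authors' deposited table. PIP2-8 (AT2G16850) fell by 2.09 on the log2 scale in the authors' deposited table. PIP2-7 and PIP2-8 are each other's closest relatives in the family, with coding sequences that are 84.0% identical, and they were called in opposite directions. PIP2-5 (AT3G54820) had a log2 fold of 5.18 and was not called, with q = 0.172 in the authors' deposited table.

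Of the 10 TIPs, 6 were tested, with 4 called higher and 0 lower in the authors' deposited table. TIP1-1 (AT2G36830), a channel for water and hydrogen peroxide whose protein is a common marker of the central vacuole, was 58.2-fold higher, a log2 of 5.86 in the authors' deposited table. TIP1-2 (AT3G26520), of the same clade, was 26.3-fold higher, a log2 of 4.72 in the authors' deposited table. TIP2-1 (AT3G16240), which also carries ammonia, was 11.0-fold higher, a log2 of 3.47 in the authors' deposited table. The assembled locus behind TIP2-1 reaches 1364 bases beyond the annotated gene, so its fold is less certain. TIP4-1 (AT2G25810) was 6.70-fold higher, a log2 of 2.74 in the authors' deposited table. Each of these had q = 0.000177 in the authors' deposited table.

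TIP2-2 and TIP2-3 had the largest folds of the family and were not called. TIP2-2 (AT4G17340) is listed on 2 lines with the same coordinates, with log2 folds of 9.48 (q = 0.210) and 9.58 (q = 0.279) in the authors' deposited table. TIP2-3 (AT5G47450), a channel for ammonia and water, had a log2 fold of 11.18 with q = 0.310 in the authors' deposited table. A large fold without a call thus occurred in each member of this pair, as in PIP2-5. Of the vacuole channels known from seeds, TIP3-1 (AT1G73190) and TIP3-2 (AT1G17810), and from pollen, TIP1-3 (AT4G01470) and TIP5-1 (AT3G47440), none was tested. All 4 had a fold of exactly 0 in the authors' deposited gene table. An exact 0 without a test was read here as no signal, not as an equal level in both conditions. In the authors' deposited isoform table, 1 isoform of TIP3-1 was tested and not called (log2 fold 1.35, q = 0.0450). It lies in a locus that names 2 genes.

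Of the 9 NIP genes, 4 were tested and 1 was called higher. This share is near the 22.3% of all tested loci and so is no result about the subfamily. NIP5-1 (AT4G10380), the boric acid channel through which roots take up boron, was 1.95-fold higher, a log2 of 0.97 with q = 0.000177 in the authors' deposited table. NIP1-1 (AT4G19030), known to let arsenite into roots, had a log2 fold of 0.11 with q = 0.688 in the authors' deposited table. NIP6-1 (AT1G80760), a boric acid channel studied mainly in shoots, had a log2 fold of 7.06 and did not pass, with q = 0.114 in the authors' deposited table, on a locus that extends 1738 bases past the gene. NIP3-1 (AT1G31885) had a log2 fold of 5.15 and also missed the threshold (q = 0.188 in the authors' deposited table). Without a test stood NIP1-2 (AT4G18910, log2 3.79), NIP2-1 (AT2G34390, a lactic acid channel, log2 -0.87) and NIP7-1 (AT3G06100, log2 -2.42) in the authors' deposited table. The pollen genes NIP4-1 (AT5G37810) and NIP4-2 (AT5G37820) had a fold of exactly 0 and no test in the authors' deposited table, again read as no signal.

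The SIP genes showed small folds. SIP1-1 (AT3G04090) was 1.73-fold higher, a log2 of 0.79, and SIP2-1 (AT3G56950) 1.95-fold higher, a log2 of 0.96, and the authors' deposited table gives both a q of 0.000177. The locus of SIP2-1 reaches 1792 bases beyond the gene. SIP1-2 (AT5G18290), with a coding sequence 74.1% identical to that of SIP1-1, had a log2 fold of -1.48 and did not pass, with q = 0.0271 in the authors' deposited table. SIP1-2 and PIP2-8 were the 2 tested members with a fold below 0.

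Side by side, the subfamilies had median log2 folds over their tested genes of 5.29 for TIPs, 4.53 for PIP2 genes, 2.67 for PIP1 genes, 3.06 for NIPs and 0.79 for SIPs, computed from the authors' deposited table with the 2 lines of TIP2-2 averaged. The TIP median rests on 6 genes, of which the 2 with the largest folds were not called, and the NIP median on 4 genes, of which 3 were not called. Differences between the subfamilies were not tested. A log2 fold of 4 or more was found for 14 of the tested aquaporin lines and for 7.01% of all tested loci with a finite fold in the authors' deposited table. A log2 fold of 5 or more was found for 9 aquaporin lines and 4.23% of loci in the authors' deposited table, and 3 of those 9 lines were called.

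**Figure D2:**
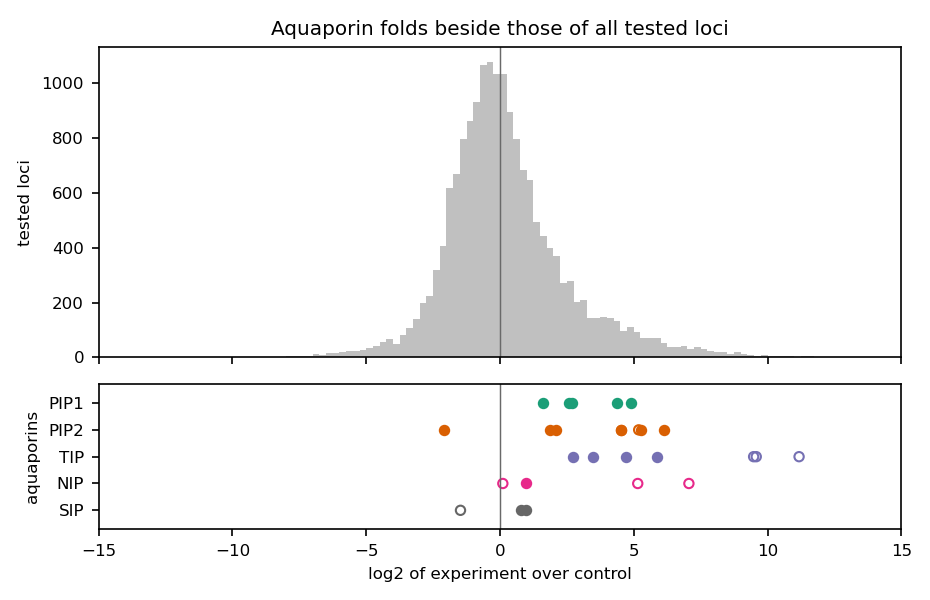
Histogram of the log2 fold of all 17323 tested loci with a finite fold (top) above the folds of the tested aquaporins by subfamily (bottom, open where q was 0.01 or more), on a shared axis of log2 of experiment over control. The loci centre near -0.08, while PIP1, TIP and NIP points lie wholly to the right of 0, the lowest NIP at 0.11. PIP2-8 stands alone among called members on the left.

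Promoters of TIP1-1, the called vacuole channel of largest fold, and of PIP2-8, called lower, are shown as the 250 bases before the annotated gene start in RefSeq TAIR10.1, because these genes moved in opposite directions. The windows are chr2:15445044-15445293 for TIP1-1 and chr2:7301084-7301333 for PIP2-8, both on the plus strand, written 5′ to 3′. Capitals mark matches to 3 motifs searched on both strands, ACGTG (the core of the G-box and of abscisic acid response elements), TGGGCC (the site II element of many genes active in dividing cells) and AAACCCTA (the telo-box).
TIP1-1: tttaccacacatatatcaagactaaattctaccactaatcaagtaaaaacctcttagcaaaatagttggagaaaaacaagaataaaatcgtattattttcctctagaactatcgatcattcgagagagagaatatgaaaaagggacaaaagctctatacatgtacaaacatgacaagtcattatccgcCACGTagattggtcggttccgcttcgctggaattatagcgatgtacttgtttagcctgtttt
PIP2-8: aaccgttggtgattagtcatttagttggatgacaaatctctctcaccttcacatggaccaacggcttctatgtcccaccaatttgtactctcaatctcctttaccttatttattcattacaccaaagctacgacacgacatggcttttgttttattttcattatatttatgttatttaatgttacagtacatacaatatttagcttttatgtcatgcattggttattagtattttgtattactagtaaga

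TIP1-1 holds 1 match, to ACGTG on the reverse strand, and PIP2-8 holds none. The same window of PIP2-3, the called aquaporin of largest fold, also holds none. ACGTG was present in 4 of the 35 member promoters (TIP1-1, TIP3-1, TIP5-1 and SIP1-1) and in 22.9% of 27443 promoters of protein-coding genes. Among the 18 members called higher, 2 had it. TGGGCC was present in 2 member promoters, those of PIP2-7 and TIP1-3, and in 13.7% of all. AAACCCTA was present in 0 member promoters and in 4.49% of all. A match describes letters in this window and is not a bound site.

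The isoform table lists 70 transcripts of the 35 genes, of which 54 were tested. In the authors' deposited isoform table, 26 of them were called higher and 1 lower at a q-value under 0.01, whereas 9.93% of all 32807 tested isoforms were called higher and 6.90% lower, 16.8% in either direction. Many isoform lines lie in loci whose coordinates are also listed for other genes. Each line names 1 gene, and whether reads of the other genes count in it was not tested. At least 1 isoform was called higher for 19 genes, but for 5 of them (PIP1-5, TIP1-3, TIP2-1, TIP4-1 and SIP2-1) every such line lies in a locus of this kind, which leaves 14 genes. PIP2-8 was the gene with an isoform called lower, and its 1 isoform had a log2 fold of -1.95 in the authors' deposited table. Of the 19 genes called in the gene table, 17 also had a called isoform, 13 of them in a locus that names 1 gene. The other 2 were PIP2-6 (q = 0.0433) and NIP5-1 (q = 0.0451 and q = 0.0514 in the authors' deposited table). Their lines lie in loci that name 14 and 3 genes, and the source of this difference between the tables was not tested.

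The 3 genes called in the isoform table alone were TIP2-2, NIP3-1 and TIP1-3. TIP2-2 had 1 isoform with a log2 fold of 9.15 and q = 0.000428, the lowest of the authors' deposited isoform table, although both of its lines missed the threshold in the gene table. An isoform of NIP3-1 had an infinite fold (q = 0.000428), since the authors' deposited table puts its control value at 0. Of the 2 isoform lines of TIP1-3, 1 had a log2 fold of 3.11 with the same q in the authors' deposited table. The other had a fold of exactly 0 and no test. The 2 lines belong to different assembled loci with the same coordinates, which are listed for 5 genes.

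Several isoforms were tested for 13 genes, and 6 genes had more than 1 called. Called isoforms of PIP2-1 had log2 folds of 4.44 and 4.61, and those of PIP1-1 had 4.29, 4.53 and 3.71, in the authors' deposited table. PIP1-4 had the widest span between called isoforms. Its isoform 1 had a log2 fold of 1.26 (q = 0.000428) and its isoform 8 one of 4.21 (q = 0.00609) in the authors' deposited table, and the difference between them was not tested. A PIP1-4 isoform with a still larger fold, isoform 7 at 12.91, was not called (q = 0.419 in the authors' deposited table). The called isoforms of TIP1-1, at 5.16 and 4.65 in the authors' deposited table, belong to 2 assembled loci with the same coordinates, and these libraries do not mark the strand. NIP1-1, uncalled as a gene, had isoforms at -0.30 and 0.18, neither of them called in the authors' deposited table.

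**Figure D3:**
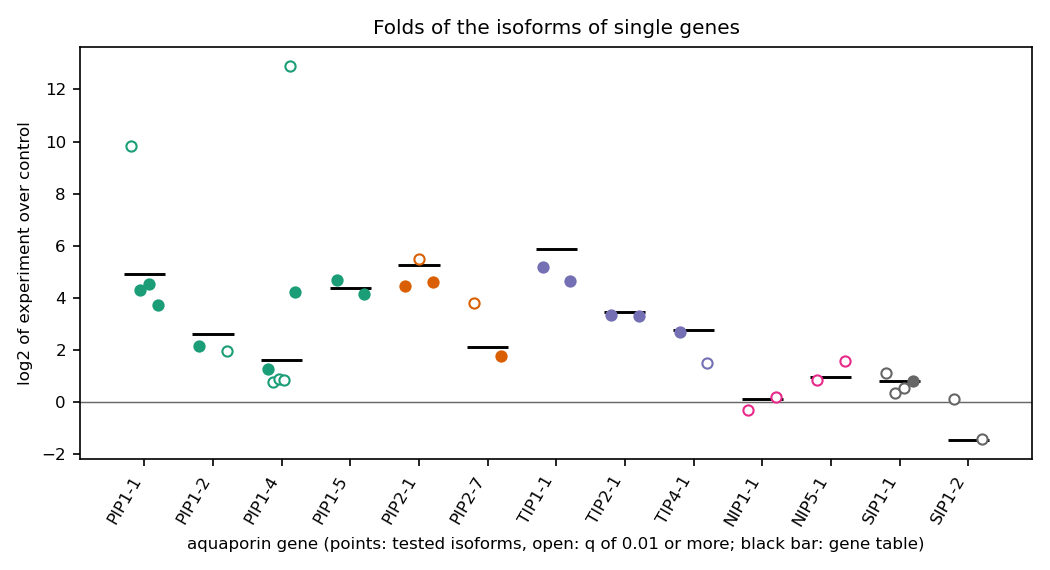
Log2 of experiment over control for each tested isoform with a finite fold, for the 13 aquaporin genes with more than 1 of them, filled where called, with a black bar at the fold of the gene table. The called isoforms of PIP2-1 (4.44 and 4.61) lie close together and those of PIP1-4 (1.26 and 4.21) far apart, while the points of PIP1-5, TIP2-1, TIP4-1, NIP5-1 and SIP1-2 come from loci that name several genes.

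Of the genes that act on aquaporins or on root hydraulics, some were called higher and 0 lower. The list held 15 genes of aquaporin trafficking, turnover and regulation or of root hydraulics. Of these, 13 were tested, with a median log2 fold of 0.91, and 6 were called higher in the authors' deposited table. That is 46.2% of the tested genes of the list, beside 22.3% of all tested loci, and the 7 uncalled genes had log2 folds from -0.16 to 2.57 in the authors' deposited table. HCR1 (AT3G24715), a kinase that tunes root water conductivity to oxygen and potassium, had a log2 fold of 2.93 (q = 0.00294) in the authors' deposited table. RMA3 (AT4G27470), a relative of the ubiquitin ligase RMA1 that acts on PIP2-1, had 2.44, and QSK1 (AT3G02880), a receptor-like kinase that acts on PIPs, had 2.25, and the authors' deposited table gives both of these log2 folds a q of 0.000177. The syntaxin SYP121 (AT3G11820), which delivers PIPs to the plasma membrane, had a log2 fold of 0.91 (q = 0.00145) in the authors' deposited table. RMA2 (AT4G28270, log2 fold 2.57, q = 0.0635) and the root hydraulics regulator XND1 (AT5G64530, log2 fold 1.59, q = 0.0167) were not called in the authors' deposited table.

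Among the boron exporters, some of which move boron onward after NIP5-1 has let it in, 4 of 7 were tested and 1 was called higher. This share is near the 22.3% of all tested loci and so is no result about the list. The called gene was BOR2 (AT3G62270), with a log2 fold of 2.40 and q = 0.000177 in the authors' deposited table. BOR4 (AT1G15460, log2 fold 4.11, q = 0.0351) and BOR1 (AT2G47160, log2 fold -0.38, q = 0.300) were not called in the authors' deposited table. The median log2 fold of the 4 tested exporters was 1.30.

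Markers of several cell types were called as well, in both directions. Root hair markers were called higher in 4 of 4 cases with log2 folds from 4.95 to 8.54, and vessel markers in 4 of 4, with finite log2 folds from 5.05 to 7.13 and a control value of 0 for VND6, in the authors' deposited table. Endodermal markers were called higher in 3 of 4 cases, with a control value of 0 for CASP2, while CASP1 was not called (log2 fold 14.11, q = 0.273), in the authors' deposited table. Dividing-cell markers were called lower in 4 of 4 cases, with log2 folds from -4.98 to -3.87 in the authors' deposited table. Root cap markers were called lower in 3 of 4 cases in the authors' deposited table, where FEZ and BRN1 were at 0 in the experiment condition and SMB was not called (log2 fold -7.82, q = 0.310). Markers of green shoot tissue were called higher in 4 of 4 cases, with log2 folds from 2.84 to 3.95 in the authors' deposited table. Zone I was described with the root cap and dividing cells, and zone II with root hairs. By those markers the experiment condition resembles zone II and the control condition zone I, but no label states this. The part of these cell types in the aquaporin folds was not tested.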

How the data were processed

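RNA-seq libraries came from 6 root samples, 3 of zone II and 3 of zone I. Per the labels' protocols, cDNA was made with a SMART-Seq kit, amplified, tagmented and sequenced as paired reads of 150 bases, without strand marks. The submitters' processing notes name TopHat, Cufflinks, Cuffdiff and the build TAIR10, and no version or setting was found. The deposited log2 folds, infinite or a spreadsheet error where a condition is at 0, were used as given. The deposited p-value and q-value of the authors' Cuffdiff run have a smallest p of 5e-05. The deposited test statistic is a score and was not ranked. The 4 columns of condition values in both tables match no label and were not used, so the written plan for levels and subfamily totals was not carried out. Depth and its precision are unknown.

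A line was called at q under 0.01, and a gene where any of its lines was. With no value per library, no test was added. Identifiers matched RefSeq TAIR10.1 for 35 of 35 members, 34 with the systematic name. TIP3-2 is BETA-TIP there. Coding sequences were aligned with Biopython 1.88. Code was tested on simulated data. Proteins, planned for printing, are not shown. RMA1 is not analysed here.

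The members and lists were chosen with earlier results of these data known. All members are named, and up to 4 called and 2 uncalled genes of each list by absolute log2. Alternatives were other thresholds, a minimum fold, centring, loci and the isoform table.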

Additional observations from a re-analysis of the deposited data

How the results depend on the processing

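The count of aquaporins called higher was 18, and it was 18 at q under 0.05, 15 with a minimum fold of 2, 16 without loci reaching over 500 bases beyond the gene and 19 in the isoform table. A Bonferroni adjustment over all tested loci left 0 called higher and 0 lower. This follows from its construction, since the smallest deposited p of 5e-05 times 18050 loci exceeds the threshold. At q under 0.05, 2 aquaporins were called lower in place of 1, the second being SIP1-2, and 2 boron exporters higher in place of 1, the second being BOR4. Centred on the median of all tested loci, the median log2 fold of aquaporins was 4.46 in place of 4.39, a shift that is the same for every line. Chosen after seeing the data, q under 0.05 gave 30 called isoforms, and loci that name no other gene gave 20, in place of 27. Also added were the count of genes called higher in isoform loci that name no other gene, 14, and the median with lines of 1 gene averaged, 3.93. Minimum levels, a pseudocount, upper quartile scaling, isoform sums and subfamily totals need the condition values and were not run. No replicate could be left out, since the tables hold no value per library. No paired analysis was possible because the columns carry no replicate numbers. Depth is unknown, so large folds without a call, such as those of TIP2-2, TIP2-3 and NIP6-1, carry no interval.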
